A study of Mus musculus with 8 samples.

Results

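The amino acid transporter genes described here were all genes whose platform symbol belongs to the solute carrier families Slc1, Slc3, Slc6, Slc7, Slc36, Slc38 or Slc43. There were 54 such genes among the 16593 with a symbol on the Illumina MouseRef-8 v2.0 bead array, carried by 78 of its 25697 probes. They were compared between GRHL2 knockout and GRHL2 wildtype cells of V6.5, an established mouse embryonic stem cell line. Each group had 4 arrays, 1 for each of 4 knockout clones and 1 for each of 4 wildtype subclones. All cells had been moved from naive culture toward an epiblast state by 3 days without LIF and the 2i inhibitors (of GSK3 and MEK). Both groups grew in the same medium, which held serum, L-glutamine and added non-essential amino acids. GRHL2 is a grainyhead-like transcription factor of epithelia, and the series asks what it does in the transcriptional network of pluripotent cells after the naive state. Since each array held a clone of its own, differences among clones, cultures and arrays cannot be told apart in the spread within a group.

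Amino acid transporters move amino acids, and in the Slc6 family also related solutes such as taurine and creatine, across the plasma or lysosomal membrane. Slc7 light chains reach the cell surface bound to a heavy chain of the Slc3 family, whereas cationic Slc7 members, Slc1 and Slc6 proteins work without one. Many transporter genes are targets of ATF4, the transcription factor of the amino acid response, and amino acids sensed at the lysosome switch on the growth kinase mTORC1. Mouse pluripotent cells are known for drawing glycine and one-carbon units from threonine.

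The knockout arrays were dimmer, with a mean bead intensity of 447 to 571, against 668 to 744 on the wildtype arrays, and quantile normalization set the arrays to 1 distribution. On these normalized log2 values a difference of 1 is 2-fold, and all changes below are knockout minus wildtype. Grhl2 had intensities of 326, 281, 219 and 268 on the knockout arrays, against 1123, 618, 457 and 764 on the wildtype arrays. Its log2 change was -1.13 (SE 0.30, limma adjusted p = 0.0369). The sources used here do not place its probe relative to the deletion. All 8 epiblast markers were detected in both groups. Their linear normalized levels summed to 32003.5 to 33322.8 on knockout arrays and 27090.9 to 33747.7 on wildtype arrays, and overlapped. Dnmt3b (log2 14.08 to 14.29 in knockout, 14.14 to 14.44 in wildtype) took the largest part of this sum, which was not computed without it. Among the 8 markers Pou3f1 (log2 11.56 to 12.15 against 10.54 to 11.21) and Utf1 (11.17 to 11.28 against 10.63 to 10.89) were higher on every knockout array than on any wildtype array. The other epiblast markers overlapped. Otx2 leaned lower in knockout (9.28 to 9.96 against 9.90 to 10.45). Sox2 (7.32 to 8.32 against 7.30 to 7.51) and Pou5f1 (11.82 to 12.40 against 11.70 to 11.98) leaned higher. Summed over 10 trophoblast markers, 7 of them detected on at least 1 knockout array and 8 on at least 1 wildtype array, the linear normalized level was 341 to 462 on knockout arrays and 576 to 2885 on wildtype arrays. Without Tfap2c, which took the largest part of this sum, the ranges were 276 to 386 in knockout and 384 to 1022 in wildtype and overlapped. Wildtype replicate 3 held the highest sum and Elf5 and Hand1 were detected on no array. Of 8 naive pluripotency markers 7 were on the array, 6 of them detected in knockout and 7 in wildtype, and they summed to 2319.5 to 2776 in knockout and 4015 to 5356 in wildtype. This separation rested on Nanog: without it the sums were 688 to 951 in knockout and 781 to 2098 in wildtype, and overlapped. The markers of endoderm, fibroblasts and neuroectoderm had sums that overlapped between the groups. Of those on the array, 3 of 8 endoderm, 5 of 8 fibroblast and 2 of 6 neuroectoderm markers were detected on no array. These sums thus rest on few detected genes. Within the overlapping endoderm sum, Amn was higher on every knockout array than on any wildtype array (log2 7.66 to 8.44 against 6.73 to 7.52). The part of these differences in the results below was not tested. In such bulk RNA, fewer cells of a type and less RNA per cell cannot be told apart.

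In knockout cells the glycine transporter gene Slc6a9 was 2.21-fold higher on quantile normalized values. The light chain gene Slc7a7 was 1.39-fold higher and the glutamate transporter gene Slc1a3 1.47-fold higher, but both had log2 changes below 0 (-0.23 and -0.14) when the arrays were not normalized to each other. The other 21 tested members were not past the threshold, an adjusted p under 0.05 over all genes tested. Of the 54 members, 24 had a probe detected on at least 4 arrays and were tested, 18 of them detected on all 8 arrays, and each was detected on at least 1 array of either group. Thus 3 of 24 were called, all higher in knockout, which is 12.5%. Over all 8830 genes tested the share called was 13.7%, with 6.55% higher and 7.17% lower, so the members were called about as often as genes in general. The groups did not overlap for 6 of the 24, 4 with knockout above and 2 with knockout below, and over all genes this share was 23.2%, with 12.4% above and 10.8% below. Among members detected on all 8 arrays 3 of 18 were called, against 14.2% of all such genes, and of the 28 retained probes of members 3 were called, against 13.2% of all retained probes with a symbol. An unadjusted p under 0.05 was found for 9 of the 24 members and for 32% of all genes. The median log2 change of the tested members was -0.02 and that of all genes 0.01, with median absolute changes of 0.31 and 0.23.

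**Figure D1:**
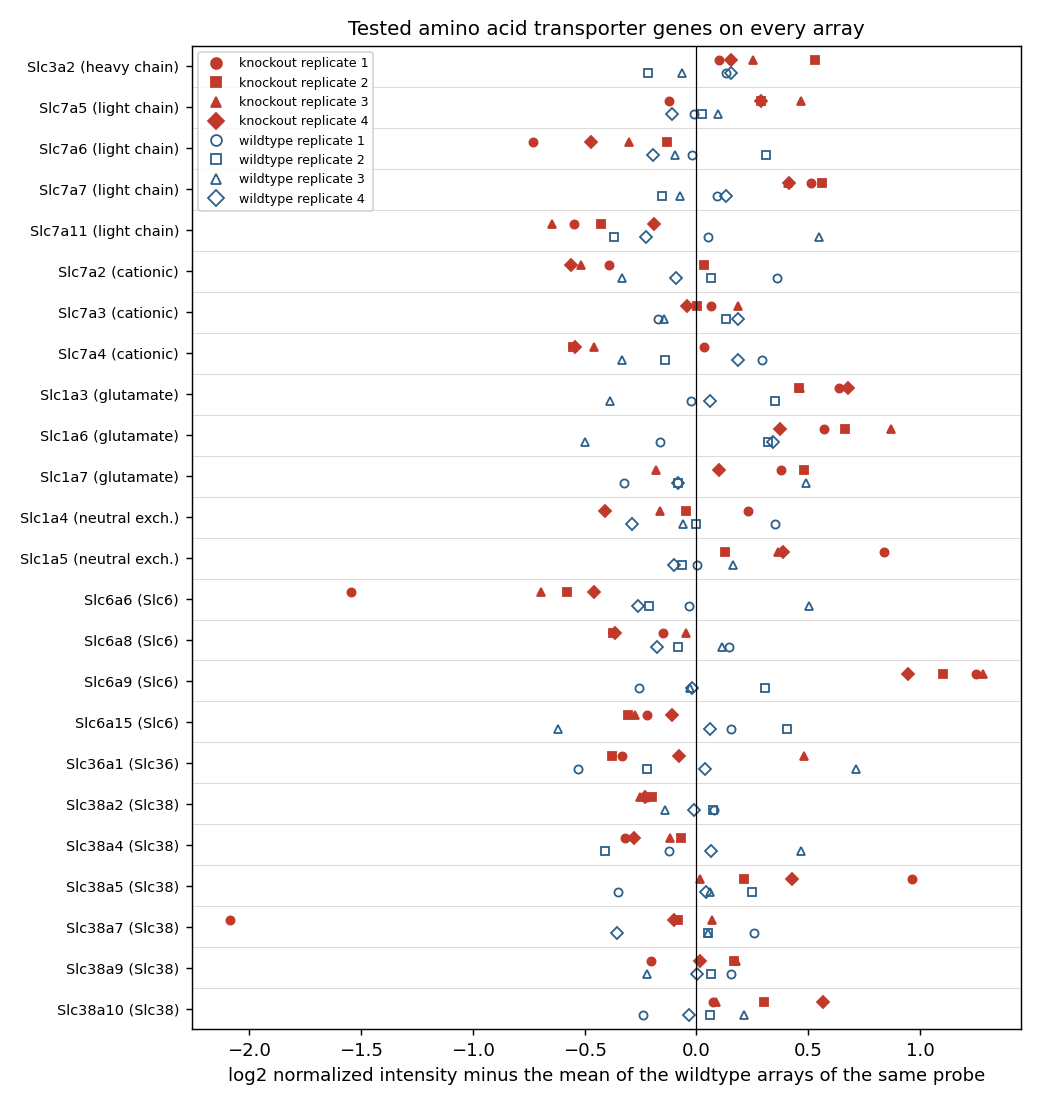
Normalized log2 intensity of the 24 tested transporter genes on every array, each as its distance from the mean of the wildtype arrays of the same probe (horizontal axis), with knockout arrays as filled red symbols above and wildtype arrays as open blue symbols below in each row; the symbol shape gives the replicate number. Slc6a9, Slc7a7, Slc1a3 and Slc1a6 have all knockout arrays to the right of all wildtype arrays on these quantile normalized values (without normalization the changes of Slc7a7 and Slc1a3 were -0.23 and -0.14), Slc6a6 and Slc38a2 have them to the left, and knockout replicate 1 lies far to the left for Slc38a7.

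**Figure D2:**
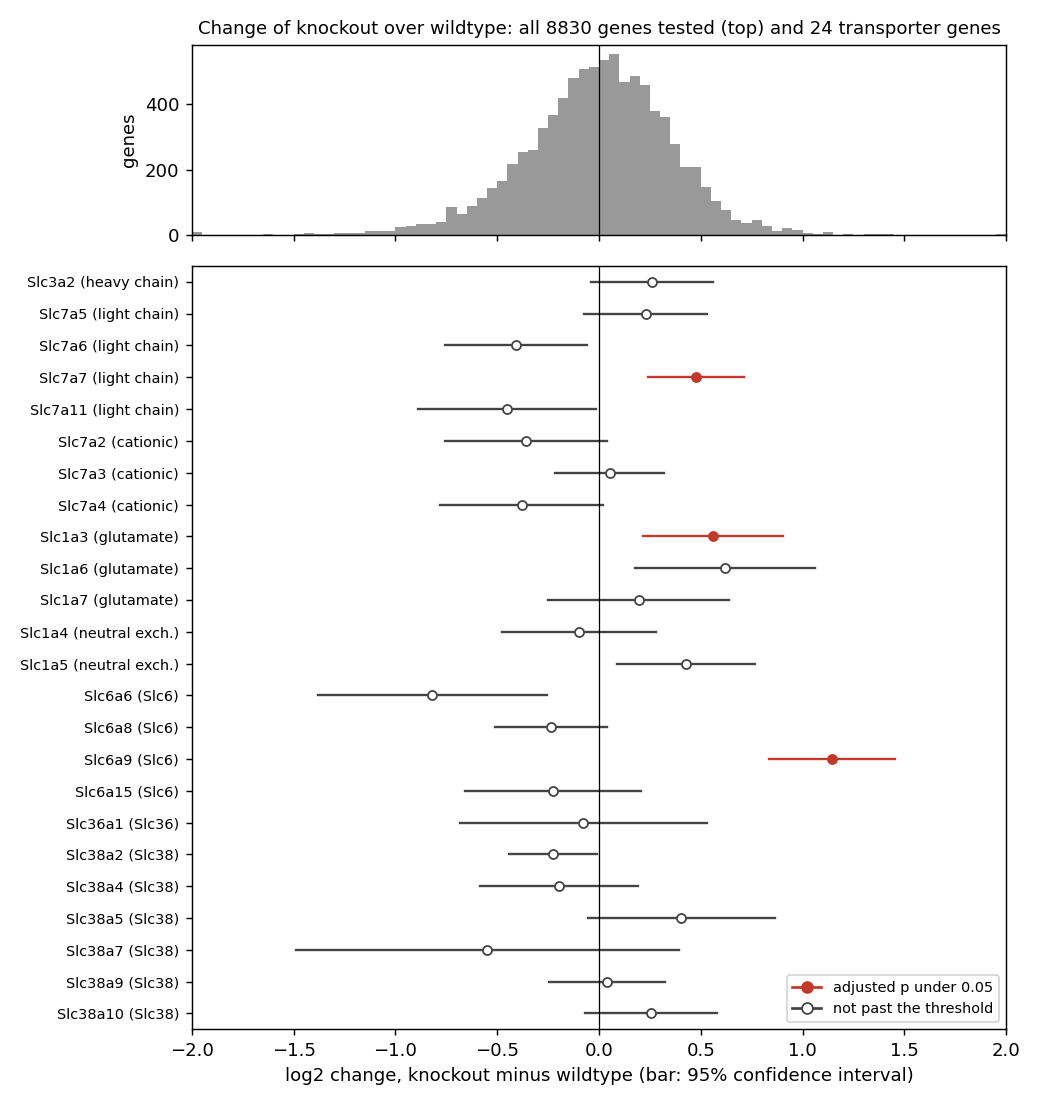
Log2 change of knockout minus wildtype for the 24 tested transporter genes with its 95% confidence interval (bars), below a histogram of the log2 changes of all 8830 genes in bins of 0.05 (changes beyond 2 in either direction are counted in the end bins). Filled red circles mark Slc7a7, Slc1a3 and Slc6a9, the members past the threshold.

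The direction of the Slc7a7 and Slc1a3 changes, and the size of the Slc6a9 change, depended on the normalization of arrays that differed in brightness. With no normalization between arrays the median change of all genes was -0.58, and with each array scaled to 1 median it was -0.35. Slc6a9 stayed higher under both, at 0.44 (adjusted p = 0.0531) and 0.68 (adjusted p = 0.00937), and in each case lay 1.02 above the median of all genes. Slc7a7 was at -0.23 without normalization and 0.00276 with median scaling, 0.35 above the median of all genes in both. Slc1a3 was at -0.14 and 0.09, 0.44 above that median in both. Neither was past the threshold there. With array brightness as a covariate, whose ranges did not overlap between the genotypes, 5 of 8830 genes and 0 members were past the threshold.

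**Figure D3:**
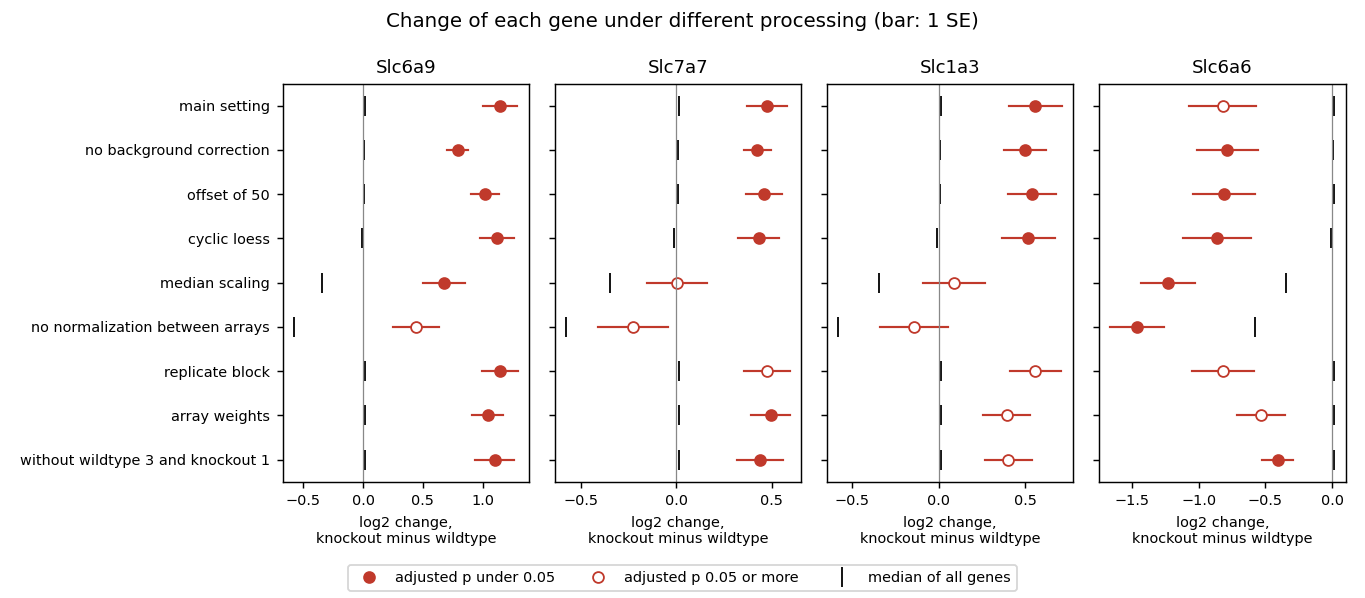
Log2 change of knockout minus wildtype with 1 SE (bars) for Slc6a9, Slc7a7, Slc1a3 and Slc6a6 under 9 ways of processing; the vertical tick is the median change of all genes under the same setting, and filled circles have an adjusted p under 0.05. Slc6a9 lies to the right of the tick in all 9, and Slc7a7 and Slc1a3 lie left of 0 without normalization between arrays, where the tick is at -0.58.

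Of the heavy chains, Slc3a2 was on the array. It encodes the partner (CD98 heavy chain) of most Slc7 light chains and lies on chromosome 19 (GRCm38.p6, 8706882 to 8723369). Its normalized log2 values were 7.04, 7.47, 7.19 and 7.09 in knockout, against 7.06, 6.72, 6.87 and 7.09 in wildtype. The groups overlapped, and the log2 change was 0.26 with a 95% interval of -0.04 to 0.56 (adjusted p = 0.210).

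Of 10 light chain genes 4 were tested, 1 rose and 3 did not pass. Slc7a7 encodes y+LAT1, which exchanges cationic for neutral amino acids, and lies on chromosome 14 (54369442 to 54420068). It had 10.26, 10.32, 10.16 and 10.17 in knockout, against 9.85, 9.60, 9.68 and 9.88 in wildtype. All knockout arrays lay above all wildtype arrays, and the knockout arrays lay closer together. The group means were 10.23 ± 0.07 in knockout and 9.75 ± 0.14 in wildtype (SD, n = 4 each), a log2 change of 0.48 (SE 0.11, limma adjusted p = 0.0211). The call was lost without knockout replicate 2 or wildtype replicate 2, where the adjusted p reached 0.0636. A second Slc7a7 probe had a change of 0.36 with an adjusted p of 0.0719 over all retained probes. Before normalization the intensities were 1236, 1046, 1016 and 823 in knockout, against 1294, 1034, 1074 and 1411 in wildtype, so the deposited intensities overlapped.

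Slc7a5 encodes LAT1, the main importer of large neutral amino acids such as leucine in dividing cells. It lies on chromosome 8 (121881146 to 121907686) and had 12.65, 13.07, 13.25 and 13.07 in knockout, against 12.77, 12.80, 12.87 and 12.67 in wildtype. Knockout replicates 2, 3 and 4 lay above every wildtype array and knockout replicate 1 below them. The change was 0.23 with an interval of -0.07 to 0.53 (adjusted p = 0.269), and 0.35 without knockout replicate 1 (adjusted p = 0.0638). Slc7a6, which encodes the related exchanger y+LAT2 and lies on chromosome 8 (106168219 to 106198714), had 6.75, 7.35, 7.18 and 7.01 in knockout, against 7.46, 7.79, 7.38 and 7.28 in wildtype. The change was -0.41 (SE 0.16, adjusted p = 0.108) and the groups overlapped at knockout replicate 2. Slc7a11 encodes xCT, the cystine and glutamate exchanger that feeds glutathione synthesis. Its probe was dim, detected on 2 knockout and 4 wildtype arrays and so retained through wildtype, with 4.93, 5.05, 4.83 and 5.28 in knockout, against 5.53, 5.11, 6.02 and 5.25 in wildtype. Its change of -0.45 (SE 0.20) did not pass (adjusted p = 0.143).

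Several of these genes are known ATF4 targets, so the promoters of the members were searched for the composite C/EBP-ATF element TGATGNAA on both strands. RefSeq windows of GRCm38.p6, 250 bases before to 50 after each annotated start, were found by symbol for 38 of the 54 members. The letters were present for 4 of these 38 genes, and for 4.51% of all 27025 genes with a window. The 30-base stretches below are written 5′ to 3′ on the strand of the gene with the match, or its reverse complement, in capitals.
Slc7a7, chr14:54417927-54417956, minus strand: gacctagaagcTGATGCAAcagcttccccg
Slc7a7, chr14:54418067-54418096, minus strand: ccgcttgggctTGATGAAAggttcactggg
Slc7a11, chr3:50443661-50443690, minus strand: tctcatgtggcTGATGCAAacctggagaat
Slc7a11, chr3:50443642-50443671, minus strand: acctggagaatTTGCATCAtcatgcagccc
Slc1a4, chr11:20332699-20332728, minus strand: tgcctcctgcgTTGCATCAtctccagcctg
Slc6a21, chr7:45282834-45282863, plus strand: agaggtgagaaTTACATCAagtgggcctcc
Of the genes that carry these letters, Slc7a7 rose on quantile normalized values (-0.23 without normalization), Slc7a11 and Slc1a4 were not past the threshold and Slc6a21 was detected on no array. The Slc7a11 stretches overlap and hold the letters on opposite strands. The grainyhead motif AACCNGGTT, whose reverse complement has the same form, was found in 0 of the 59 windows of members and in 0.271% of all 32851 windows. A match is a description of the letters and was not tested as a binding site.

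Of 5 cationic amino acid transporter genes 3 were tested and 0 passed. Slc7a3 encodes CAT3, an importer of arginine and lysine. It lies on chromosome X and had 13.39, 13.33, 13.51 and 13.29 in knockout, against 13.16, 13.46, 13.18 and 13.51 in wildtype. The groups overlapped, and the change of 0.05 had an interval of -0.21 to 0.32 (adjusted p = 0.795). A second, dim probe of Slc7a3 had a change of 0.29 (adjusted p = 0.365 over all probes). Slc7a4, a relative whose transport activity is not settled, had 5.68, 5.09, 5.19 and 5.10 in knockout, against 5.93, 5.50, 5.31 and 5.83 in wildtype. Here knockout replicate 1 lay among the wildtype arrays and the other knockout arrays below all of them, with a change of -0.38 (adjusted p = 0.173). Slc7a2 (CAT2) was detected on 1 knockout and 3 wildtype arrays and so retained mainly through wildtype, with a change of -0.36 (adjusted p = 0.196).

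Among glutamate transporter genes 3 of 5 were tested, 1 rose and 2 did not pass. Slc1a3 encodes GLAST, a sodium-coupled glutamate and aspartate importer known from astrocytes, and lies on chromosome 15 (8634124 to 8710807). Its values were 10.36, 10.18, 10.18 and 10.40 in knockout, against 9.69, 10.07, 9.33 and 9.78 in wildtype. The groups did not overlap, but knockout replicates 2 and 3 lay only just above wildtype replicate 2. The change was 0.56 (SE 0.15, limma adjusted p = 0.0416), with means of 10.28 ± 0.12 in knockout and 9.72 ± 0.30 in wildtype (SD, n = 4 each). The call was near the threshold and was lost without any 1 array other than wildtype replicate 2, with adjusted p up to 0.0936 and a change of 0.43 to 0.68. Before normalization its intensities overlapped, at 1320.0, 959, 1031 and 955 in knockout, against 1174, 1406, 869.5 and 1322 in wildtype.

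Slc1a6 encodes EAAT4, a glutamate transporter known from Purkinje cells, and had 5.91, 6.01, 6.21 and 5.71 in knockout, against 5.18, 5.66, 4.84 and 5.69 in wildtype. All knockout arrays lay above all wildtype arrays, by as little as knockout replicate 4 against wildtype replicate 4. The change of 0.62 (SE 0.20) was not past the threshold (adjusted p = 0.0643), and its probe was dim, detected on 4 knockout and 3 wildtype arrays. Slc1a7 (EAAT5), detected on 3 arrays of each group, had a change of 0.19 with an interval of -0.25 to 0.64.

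Neither gene of the neutral exchangers passed. Slc1a5 encodes ASCT2, a glutamine importer of proliferating cells. The tested probe was detected on 3 knockout and 1 wildtype array, with 5.59, 4.88, 5.12 and 5.15 in knockout, against 4.76, 4.69, 4.92 and 4.66 in wildtype. Its change was 0.43 (SE 0.15, adjusted p = 0.0853), and the groups overlapped at wildtype replicate 3. The probe was thus retained mainly through knockout, where it was higher. A second Slc1a5 probe, detected on 1 knockout and 2 wildtype arrays and so not tested, had means of 4.899 in knockout and 4.905 in wildtype. Slc1a4 (ASCT1), an exchanger of alanine, serine, cysteine and threonine, had 8.40, 8.13, 8.01 and 7.76 in knockout, against 8.52, 8.17, 8.11 and 7.88 in wildtype. Its change of -0.10 had an interval of -0.48 to 0.28 (adjusted p = 0.731), and its groups overlapped throughout.

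Of 16 Slc6 genes 4 were tested, 1 rose and 3 did not pass. Slc6a9 encodes GlyT1, which imports glycine together with sodium and chloride, and lies on chromosome 4 (117835258 to 117869305). It had 8.81, 8.66, 8.84 and 8.51 in knockout, against 7.30, 7.87, 7.53 and 7.54 in wildtype. Every knockout array lay above every wildtype array, and the gap between the groups was wider than the range within either. The means were 8.71 ± 0.15 in knockout and 7.56 ± 0.23 in wildtype (SD, n = 4 each), a log2 change of 1.14 (SE 0.14, limma adjusted p = 0.00244). The call held without any 1 array, with changes of 1.06 to 1.25 and adjusted p up to 0.0113. Its intensities before normalization were 510.4, 406, 470.3 and 336 in knockout, against 324, 395, 339 and 379 in wildtype, which overlapped at knockout replicate 4.

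**Figure D4:**
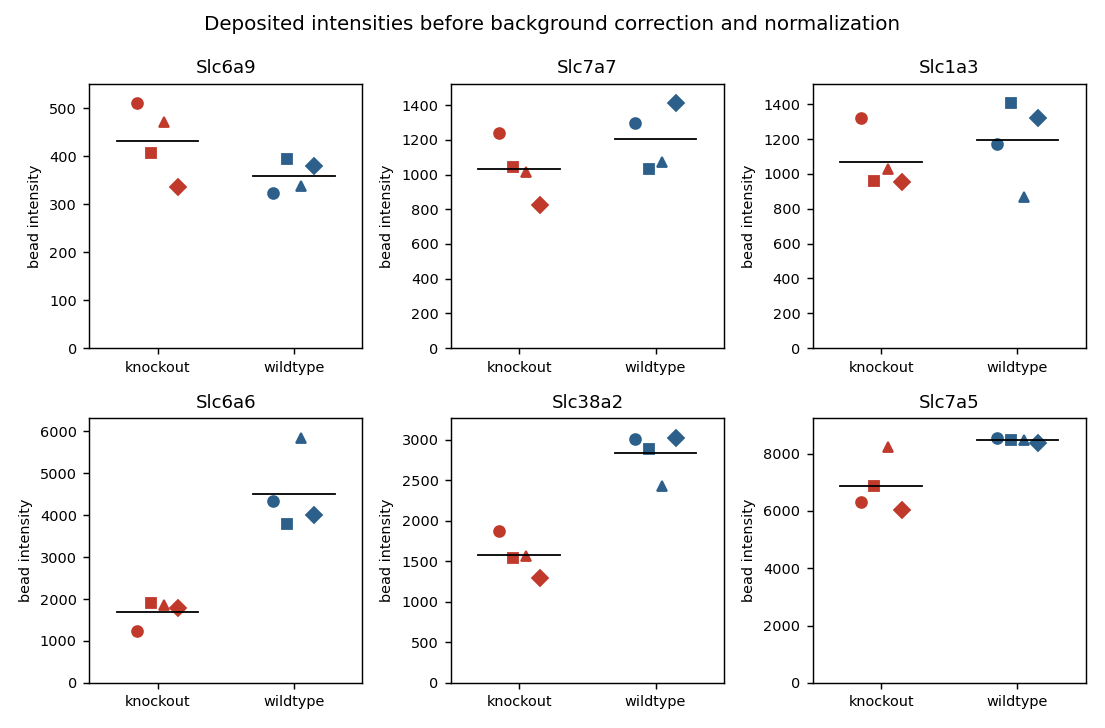
Deposited bead intensities (vertical axes, linear, from 0) of 6 transporter genes on the 4 knockout arrays (red, left) and the 4 wildtype arrays (blue, right), before background correction and normalization; symbol shapes are circle, square, triangle and diamond for replicates 1 to 4 and lines are group means. Slc6a6, Slc38a2 and Slc7a5 are lower on every knockout array than on any wildtype array, while the groups overlap for Slc6a9, Slc7a7 and Slc1a3 on arrays whose mean intensity was 447 to 571 in knockout and 668 to 744 in wildtype.

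Slc6a6, the taurine transporter gene, had the most negative change among the 24 tested members. It lies on chromosome 6 (91684048 to 91759063) and had 10.25, 11.22, 11.11 and 11.34 in knockout, against 11.77, 11.59, 12.30 and 11.54 in wildtype. All knockout arrays lay below all wildtype arrays, with knockout replicate 1 lowest and wildtype replicate 3 highest of all. The change of -0.82 (SE 0.25) missed the threshold (adjusted p = 0.0573). It passed with no background correction (-0.79, adjusted p = 0.0461), an offset of 50 (-0.81, adjusted p = 0.0389), cyclic loess (-0.87, adjusted p = 0.0488), an intensity trend (adjusted p = 0.0283), probes detected on all 8 arrays (adjusted p = 0.0493), median scaling (-1.23, adjusted p = 0.00113) and no normalization (-1.46, adjusted p = 6.85e-05). Without knockout replicate 1 the change was -0.58 (adjusted p = 0.0692), without wildtype replicate 3 it was -0.65 (adjusted p = 0.0974), and with both left out it was -0.41 (adjusted p = 0.0465). Those 2 arrays differed from their groups over chromosome 6, as given below.

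Slc6a8, the creatine transporter gene on chromosome X, had 9.36, 9.13, 9.46 and 9.14 in knockout, against 9.65, 9.43, 9.62 and 9.33 in wildtype, a change of -0.23 (adjusted p = 0.220). Slc6a15, an importer of branched-chain amino acids and proline, had 8.42, 8.34, 8.37 and 8.53 in knockout, against 8.80, 9.04, 8.02 and 8.70 in wildtype. Wildtype replicate 3 alone lay below the knockout arrays. The change was -0.23 (adjusted p = 0.451), and -0.43 without that array (adjusted p = 0.0412).

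The upstream windows of the other risen members, Slc6a9 at its most upstream annotated start and Slc1a3, are shown in full because neither motif was found in them. They span the 250 bases before the start, written 5′ to 3′ on the strand of the gene in GRCm38.p6, and hold 60.4% and 44.8% G and C. No match says only that these letters are not in these windows.
Slc6a9, chr4:117835008-117835257, plus strand: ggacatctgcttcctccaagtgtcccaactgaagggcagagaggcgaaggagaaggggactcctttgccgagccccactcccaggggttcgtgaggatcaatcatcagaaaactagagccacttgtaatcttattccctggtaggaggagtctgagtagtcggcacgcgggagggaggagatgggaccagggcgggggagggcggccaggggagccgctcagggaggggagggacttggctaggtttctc
Slc1a3, chr15:8710808-8711057, minus strand: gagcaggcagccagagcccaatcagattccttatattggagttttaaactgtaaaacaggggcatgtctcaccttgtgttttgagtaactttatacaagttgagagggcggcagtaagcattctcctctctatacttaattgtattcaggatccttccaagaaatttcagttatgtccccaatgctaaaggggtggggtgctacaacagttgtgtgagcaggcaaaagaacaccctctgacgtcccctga

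In the Slc38 family 6 of 10 genes were tested and 0 passed. Slc38a2 encodes SNAT2, the sodium-coupled importer of small neutral amino acids that cells raise when amino acids are short, and lies on chromosome 15 (96687392 to 96699728). It had 10.89, 10.91, 10.86 and 10.88 in knockout, against 11.19, 11.19, 10.97 and 11.10 in wildtype. The knockout arrays lay close together and all below the wildtype arrays. The change was -0.23 (SE 0.10, adjusted p = 0.140). It passed with no background correction (-0.22, adjusted p = 0.0441), with median scaling (-0.66, adjusted p = 0.00414) and with no normalization (-0.90, adjusted p = 0.000559). Its other probes disagreed in sign: one had -0.56 (adjusted p = 0.0744 over all probes) and a dim one, detected on 3 arrays of each group, had 0.21 (adjusted p = 0.518).

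Slc38a7 encodes SNAT7, which exports glutamine from lysosomes, and lies on chromosome 8 (95835920 to 95853577). Its values were 5.83, 7.84, 7.99 and 7.82 in knockout, against 8.18, 7.97, 7.97 and 7.56 in wildtype. Knockout replicate 1 lay far below the other arrays, while knockout replicates 2 to 4 lay among the wildtype arrays. The change was -0.55 (SE 0.42, adjusted p = 0.399), and -0.04 without knockout replicate 1 (adjusted p = 0.890). Slc38a5, a glutamine and glycine transporter gene, had a change of 0.40 with an interval of -0.06 to 0.86. Slc38a10 had a change of 0.26, Slc38a9, whose protein senses arginine at the lysosome for mTORC1, had 0.04, and the imprinted gene Slc38a4 had -0.20. Of 3 Slc36 genes Slc36a1, a proton-coupled exporter of lysosomes, was tested, detected on 2 arrays of each group, with a change of -0.08 and an interval of -0.68 to 0.53. Neither gene of the Slc43 family was tested.

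Chromosome-wide shifts on 2 arrays touched some of these members. On knockout replicate 1 the 492 genes tested on chromosome 8 lay at a median of -0.43 against the other knockout arrays, with 90.7% of them lower. The members on that chromosome lay at -2.05 (Slc38a7), -0.47 (Slc7a5), -0.43 (Slc7a6) and -0.04 (Slc7a2). On wildtype replicate 3 the 428 genes tested on chromosome 6 lay at a median of 0.40 against the other wildtype arrays, with 88.3% of them higher, and Slc6a6 lay at 0.67. On knockout replicate 1 the chromosome 6 genes lay at -0.16 and Slc6a6 at -0.97. Slc6a9, Slc7a7 and Slc1a3 lie on other chromosomes. With both arrays left out 3 members were higher (Slc6a9, Slc7a7 and Slc7a5) and 3 lower (Slc6a6, Slc6a15 and Slc7a4), out of 19.7% of all genes called. In that comparison Slc7a5 had a change of 0.38 (adjusted p = 0.0453), Slc7a4 had -0.63 (adjusted p = 0.0190) and Slc1a3 had 0.40 without passing (adjusted p = 0.0706). On the knockout arrays kept there, Slc7a4 lay near background (5.09 to 5.19).

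**Figure D5:**
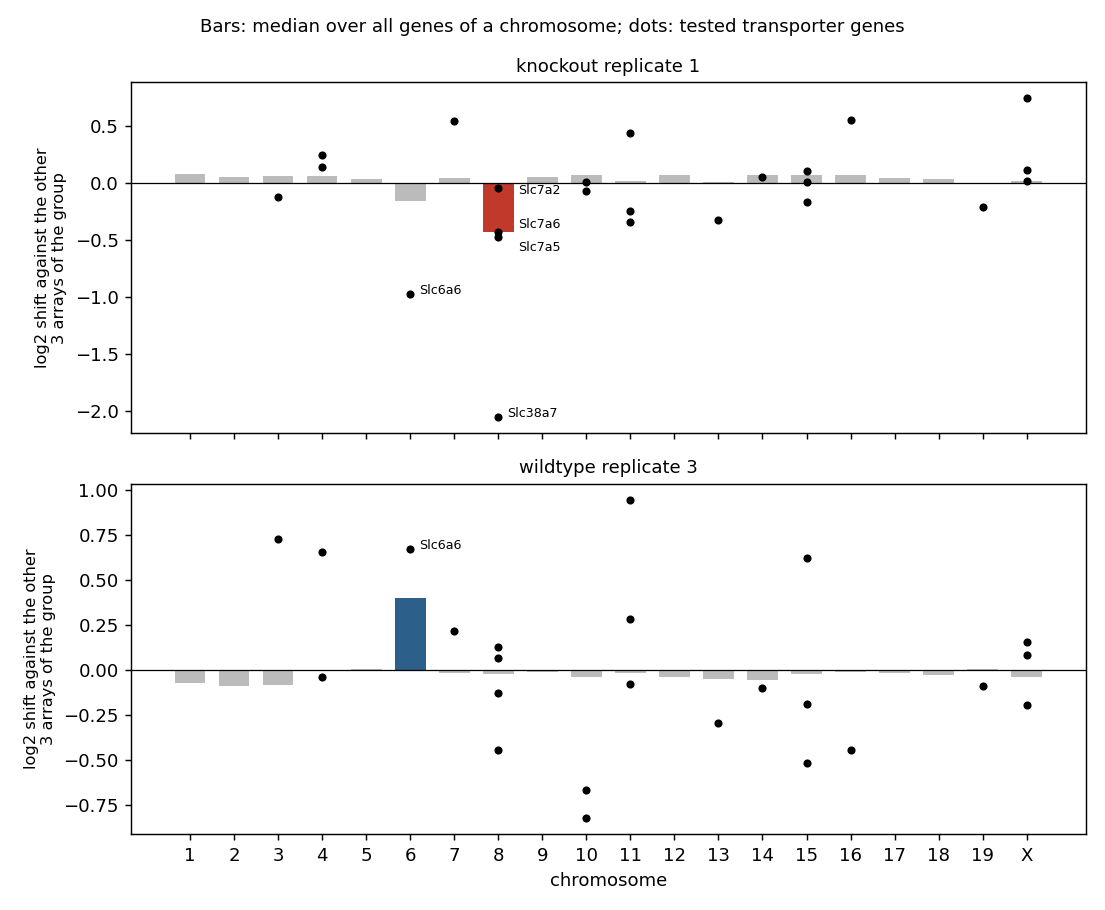
Log2 distance of knockout replicate 1 (top) and wildtype replicate 3 (bottom) from the mean of the other 3 arrays of their group; bars are medians over all genes tested on a chromosome (horizontal axis) and dots are the 24 tested transporter genes. The coloured bars are chromosome 8 at -0.43 on knockout replicate 1 and chromosome 6 at 0.40 on wildtype replicate 3, and Slc38a7 lies at -2.05.

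The remaining 30 members had no probe detected on 4 or more arrays and were not tested. Of these, 16 were detected on 0 arrays, namely Slc1a1, Slc36a2, Slc36a3, Slc38a11, Slc43a3, Slc6a14, Slc6a17, Slc6a19, Slc6a21, Slc7a9, Slc7a12, Slc7a13, Slc7a15, the dopamine and serotonin transporter genes Slc6a3 and Slc6a4, and Slc6a5, the neuronal glycine transporter gene. Another 8 were detected on 1 array (Slc1a2, Slc38a3, Slc38a8, Slc6a11, Slc6a12, Slc6a13, Slc7a14 and Slc7a1, the cationic transporter gene CAT1). Slc43a2, Slc6a7, Slc7a8 and Slc7a10 were detected on 2 arrays, and Slc38a1 and Slc6a2 on 3. A probe not above background gives no level for its gene.

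The wider pathway was read from 5 lists, beside the 6.55% of all genes that were called higher and the 7.17% called lower. Without normalization those shares were 0.408% and 64.9%, with median scaling 1.51% and 39.3%, and with wildtype replicate 3 and knockout replicate 1 both left out 8.89% and 10.8%. Of 27 genes of the amino acid response on the array 24 were tested, 8 rose and 0 fell, with a median log2 change of 0.49 against 0.01 for all genes. The transcription factor gene Atf5 was at 10.08 ± 0.44 in knockout and 8.85 ± 0.40 in wildtype (SD, n = 4 each), a change of 1.23 (SE 0.25, adjusted p = 0.0154). Nupr1, a stress-induced chromatin protein gene, rose by 1.04 (SE 0.20, adjusted p = 0.0137), Chac1, which breaks down glutathione, by 0.92 (adjusted p = 0.0137) and the leucine sensor gene Sesn2 by 0.79 (adjusted p = 0.0143). Atf4 itself had a change of 0.32 without passing (adjusted p = 0.0710). Among the genes of this list not past the threshold, Cbs (-0.27), Psat1 (-0.09) and Cebpb (-0.01) lay below 0 and the rest above. The counts depended on normalization: without it 0 rose and 6 fell, with a median of -0.16 against -0.58 for all genes, and with median scaling 2 rose and 2 fell, with a median of 0.07 against -0.35. With wildtype replicate 3 and knockout replicate 1 both left out 11 rose and 0 fell. Leaving out each single array gave 6 to 11 risen, against 241 to 647 of all 8830 genes. With the clone number as a block 6 rose, with an adjusted p under 0.01 it was 1, and with the brightness covariate 0. Over all genes 287, 67 and 3 rose under these settings.

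Of 19 cytosolic aminoacyl-tRNA synthetase genes, which charge tRNAs with amino acids, 3 rose and 0 fell, with a median of 0.05, whereas without normalization 0 rose and 10 fell. Sars, for serine, rose by 1.02 (SE 0.12, adjusted p = 0.00219), Mars1, for methionine, by 0.79 (adjusted p = 0.00461) and Vars, for valine, by 0.72 (adjusted p = 0.00999). With both arrays left out 5 rose. Of 29 genes of amino acid sensing upstream of mTORC1, 3 rose and 2 fell, with a median of 0.03, whereas without normalization 0 rose and 19 fell. Both counts lay near the shares of all genes. Besides Sesn2, Tsc2, a subunit of the complex that holds back mTORC1, rose by 0.56 (SE 0.10, adjusted p = 0.00918). Both calls held without any 1 array. Castor2 also rose (0.40, adjusted p = 0.0441), but lost its call without any array other than knockout replicate 1 (adjusted p up to 0.112). Sesn3 fell by 0.78 (adjusted p = 0.0252) and Rheb, the GTPase that switches on mTORC1, fell by 0.61 (adjusted p = 0.0245). The Sesn3 probe was dim, at a mean of 5.20 in knockout and 5.98 in wildtype, detected on 3 knockout and 4 wildtype arrays. The calls of Sesn3 and Rheb were lost when any array other than knockout replicate 1 or wildtype replicate 3 was left out, with adjusted p up to 0.0703 and 0.0608. With both of those arrays left out 4 rose and 5 fell in this list. Of 17 glutathione genes 2 rose and 0 fell, which is near the share of all genes, against 0 and 12 without normalization: Chac1 and the mitochondrial glutathione carrier gene Slc25a39 (0.60, adjusted p = 0.0201), the second being lost without wildtype replicate 4 (adjusted p = 0.0518). Of 15 amino acid transporter genes outside the 7 families 0 rose and 1 fell, against 0 and 7 without normalization. It was Slc17a6, the vesicular glutamate transporter gene, whose probe was detected on 1 knockout and 4 wildtype arrays. The probe was thus retained through wildtype, where it is high, and the size of its difference is not given.

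The authors' deposited table of their own comparison gave Slc6a9 a log2 change of 0.76 (adjusted p = 0.00149) and Slc7a7 0.42 (adjusted p = 0.00667). In the authors' deposited table Slc1a3 had 0.42 and an adjusted p of 0.0538, and Slc38a2 had -0.22 and an adjusted p of 0.0184. For Slc6a6 the authors' deposited table gave -0.63 and 0.0972. The processing behind that table is not fully given, so the sizes of its changes are not directly comparable with those above.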

How the data were processed

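Total RNA of 8 cultures was measured on Illumina bead arrays. The scanner table holds, per the file headers, each probe's mean bead intensity with its standard error, a bead count and a detection p-value on every array, and its values showed no background subtraction. The authors also deposited log2 values whose quantiles were equal on all arrays, and a table in limma's output form with log2 fold changes, p-values and scores (moderated t and log odds), per the file headers. The submitters' processing notes name limma, and no further step is given. Groups came from the genotype labels.

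The intensities went through limma's neqc (limma 3.58.1, R 4.3.3; offset of 16, background inferred from the detection p-values), which ends in quantile normalization. A probe was retained where at least 4 arrays had a detection p under 0.05, which held for 12790 of 25697. The platform annotation paired 23978 probes with 1 symbol and 0 with several, and 1719 stayed unnamed. The retained probe with the highest mean stood for a gene, which left 8830 genes. Knockout and wildtype were compared by lmFit and eBayes, two-sided, with Benjamini-Hochberg adjustment over all 8830 genes. SE is the moderated standard error and intervals are 95%. Positions are those of RefSeq's gene table for GRCm38.p6, which matched all 54 members. The fit was tested on simulated data. The number of arrays limits the precision.

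Members, lists and tests were chosen with earlier results of these data known. The naming rule covered every member past the threshold, the 6 largest changes among the rest and, per pathway list, at most 4 called genes by size of change. The other tested members, Atf4, Cbs, Psat1, Cebpb and Castor2 were added after their values were seen. Alternatives covered background correction, normalization, the detection filter, the choice of probe, array weights, variance moderation, the clone number as a block, brightness, the threshold and arrays left out. Deviations of equally numbered clones and subclones correlated at -0.08 to 0.05, so the numbers were not used as pairs. No label gives a slide or day, so none was tested as a batch.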

Additional observations from a re-analysis of the deposited data

Results flagged for a closer look

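Of 48 sets of 4 arrays (24 tested transporter genes in 2 groups), 2 held an array farther from the others than Dixon's 95% limit allows, and chance alone marks about 1 set in 20. Both were knockout replicate 1. Slc38a7 was 5.83 there and 7.82 to 7.99 on the other knockout arrays. Slc7a4 was 5.68 there and 5.09 to 5.19 on the other knockout arrays. Slc38a7 lies on chromosome 8, whose genes had a median of -0.43 on that array, and Slc7a4 on chromosome 16.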

How the results depend on the processing

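Signal near background limits Slc7a11, Slc1a5, Slc1a6, Slc1a7, Slc7a2 and Slc36a1, which were detected on fewer than 8 arrays. Slc7a4, detected on all 8, also lay near background. It was at 5.09 to 5.19 on knockout replicates 2 to 4, where the lowest detected level was 4.96 to 5.02. Slc38a5 lay at 5.03 on wildtype replicate 1, where that level was 4.86. Slc6a9 kept its call under all alternatives other than no normalization between arrays and brightness as a covariate (1.34, adjusted p = 0.286). Members higher numbered 3, against 0 without normalization or with the brightness covariate, 1 with median scaling and 1 with the clone number as replicate block. They numbered 1 at an adjusted p under 0.01, 2 with array weights, 2 with all probes kept and 1 to 2 with each array left out. Members lower numbered 0, against 13 without normalization, 9 with median scaling, 2 with no background correction, 3 without wildtype replicate 3 and knockout replicate 1 together, 0 to 1 with each array left out, and 1 each with an offset of 50, cyclic loess, probes detected on all 8 arrays, array weights and an intensity trend. With the replicate block Slc7a7 and Slc1a3 had adjusted p of 0.0572 and 0.0626 at unchanged log2 changes. Slc1a3 also lost its call with array weights (0.39, adjusted p = 0.0572) and with all probes kept (0.56, adjusted p = 0.0584). Genes higher numbered 578, against 36 without normalization, 133 with median scaling, 1056 with array weights, 287 with the replicate block, 3 with brightness, 67 at 0.01 and 241 to 647 with each array left out. Genes lower numbered 633, against 5735, 3474, 1119, 384, 2, 100 and 269 to 793 in the same order, and 958 without both arrays. Signs reversed without normalization for Slc1a3 (-0.14), Slc7a7 (-0.23), Slc1a7 (-0.094), Slc38a10 (-0.31), Slc38a5 (-0.030), Slc38a9 (-0.51), Slc3a2 (-0.38), Slc7a3 (-0.45) and Slc7a5 (-0.32). With median scaling they did for Slc38a10 (-0.080), Slc38a9 (-0.28), Slc3a2 (-0.15), Slc7a3 (-0.21) and Slc7a5 (-0.084), where the median of all genes itself fell below 0. With the brightness covariate they did for Slc1a4 (0.44), Slc1a7 (-0.065), Slc38a10 (-0.55), Slc38a9 (-0.061), Slc7a4 (0.72) and Slc7a5 (-0.32), and the cause of all these differences was not tested. Small changes also crossed 0 for Slc7a3 with array weights (-0.047) and, with both arrays left out, for Slc7a3 (-0.00010), Slc38a4 (0.00065) and Slc36a1 (0.25). With single arrays left out they ranged from -0.21 to 0.020 for Slc1a4, from -0.26 to 0.16 for Slc36a1, from -0.034 to 0.12 for Slc38a9 and from -0.0045 to 0.11 for Slc7a3.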
